A study of Mus musculus with 9 samples.

Results

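The 10 genes described here mark the B lineage from its earliest recombining progenitors to the plasma cell: Dntt, Rag1, Pax5, Vpreb1, Igll1, Blnk, Cd79a, Cd79b, Igha and Jchain. They are 10 of 18194 genes that carry a single gene symbol on an Affymetrix mouse expression array. The genes were listed by name with earlier results of these data known, so their levels describe a set that was not drawn blind. Where several probe sets carried a gene's symbol, the main one was chosen by its mean signal over the 9 arrays, the highest of them standing for the gene. RNA came from marrow of FVB/NJ mice, from cells sorted as stromal because they lacked CD45.1 (an allelic form of the common leukocyte antigen) and the red cell antigen Ter119. The wild-type group (WT) had 3 arrays. The early group (E) had 3 arrays of leukemic recipients with 1 to 5% leukemic cells in the marrow, and the medium group (M) 3 arrays of recipients with 5 to 50%. No group of leukemic mice is described as free of leukemic cells in the marrow, and no percentage is given for wild type. The type of leukemia and the ages of the mice are not given in the sources used here. The labels call the arrays of a group biological replicates and do not say whether mice were pooled. The series asked how gene expression in the marrow stroma shifts as leukemia advances.

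B cells arise in the marrow, in contact with stromal cells that supply IL-7 and CXCL12. A committed progenitor cuts and joins its immunoglobulin heavy chain gene, displays the heavy chain with a surrogate light chain as the pre-B-cell receptor, replaces the surrogate by a true light chain and leaves as a B cell. Plasma cells, which secrete antibody, later return to the marrow and lodge beside the same stroma. Stromal cells themselves are not a textbook source of these transcripts, so signals of the 10 genes in this sort are reported next to those of leukocyte genes.

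The arrays differed as wholes, and leukocyte and erythroid markers gave signal in every group despite the sort. The summed linear signal of 6 pan-leukocyte markers (Ptprc, which encodes CD45, Cd52, Cd53, Laptm5, Coro1a and Lcp1; 6 of 6 measured, 0 values at zero) ran from 3610 to 3994 (WT), 2640 to 2855 (E) and 6905 to 12883 (M). That of 7 mesenchymal stroma markers (7 of 7 measured) ran from 3540 to 4078, from 4651 to 5091 and from 51160 to 64570. Of 5 erythroid markers measured the sum was 31077 to 35234 in WT, 25717 to 26938 in E and 14771 to 37381 in M, with the lowest value in M replicate 3. The median log2 signal of all probe sets was 5.60 to 5.68 in WT, 5.43 to 5.60 in E and 6.24 to 6.28 in M, and a gene under it is called dim below. The choice of scale therefore sets the size of every difference of M: centring the arrays on their medians lowers each M with WT difference by 0.63 and each M with E difference by 0.76, and scaling them on the spike-ins lowers them by 0.99 and 1.05 (log2). In bulk RNA of this kind, fewer cells of a type and less RNA per cell cannot be told apart.

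The upstream sequences of 4 genes are shown because the levels of these genes were higher in M than in WT and because they serve successive steps of B cell formation. The Rag1 product cuts DNA in recombination, Vpreb1 and Igll1 encode both parts of the surrogate light chain, and Blnk encodes the adaptor that links the receptor to its signalling enzymes. Each is the 250 bases before the gene's start (RefSeq, GRCm38.p6), 5′ to 3′ along the gene, with motif matches in capitals.

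Rag1, chr2:101649533-101649782, minus strand: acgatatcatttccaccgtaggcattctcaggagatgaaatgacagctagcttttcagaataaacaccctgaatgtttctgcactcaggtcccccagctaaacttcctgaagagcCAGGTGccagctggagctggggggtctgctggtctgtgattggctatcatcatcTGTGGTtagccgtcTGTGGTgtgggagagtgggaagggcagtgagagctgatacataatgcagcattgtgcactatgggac

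Vpreb1, chr16:16869256-16869505, minus strand: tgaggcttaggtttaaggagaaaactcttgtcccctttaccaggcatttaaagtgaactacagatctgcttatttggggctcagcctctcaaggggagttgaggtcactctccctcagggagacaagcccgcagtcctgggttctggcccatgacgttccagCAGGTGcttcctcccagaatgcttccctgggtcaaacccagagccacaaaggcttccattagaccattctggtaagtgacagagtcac

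Igll1, chr16:16863986-16864235, minus strand: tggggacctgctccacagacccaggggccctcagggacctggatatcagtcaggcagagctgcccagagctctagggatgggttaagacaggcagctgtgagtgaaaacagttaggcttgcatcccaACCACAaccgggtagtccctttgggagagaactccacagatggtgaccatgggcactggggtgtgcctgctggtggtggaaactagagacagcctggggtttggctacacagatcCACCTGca

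Blnk, chr19:40994222-40994471, minus strand: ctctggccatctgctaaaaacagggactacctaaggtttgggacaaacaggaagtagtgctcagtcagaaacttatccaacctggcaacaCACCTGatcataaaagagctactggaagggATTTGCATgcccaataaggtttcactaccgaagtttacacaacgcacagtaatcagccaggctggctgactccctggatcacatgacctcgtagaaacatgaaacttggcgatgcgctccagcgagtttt

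The motifs, searched on both strands, were the octamer ATTTGCAT bound by POU factors of B cells, the palindrome of EBF1 (TCCC and GGGA with any 2 bases between), the E-box CAGGTG of E2A and TGTGGT of RUNX factors. RefSeq upstream windows were found for 8 of the 10 genes. The E-box was present in 5 of these (Rag1, Vpreb1, Igll1, Blnk and Cd79a), against 17.2% of 32851 windows. The Rag1 window held TGTGGT in 2 places and the Igll1 window its reverse complement ACCACA once, against 14.0% of all windows. Blnk alone of the 8 held the octamer, found in 1.6% of all windows, and 0 of the 8 held the EBF1 letters, found in 0.779%. Such matches describe these windows and are not evidence of binding. Vpreb1 and Igll1 are direct neighbours on chromosome 16, with 0 annotated genes between them. Blnk and Dntt lie on chromosome 19 with 2 annotated genes between them.

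The genes of heavy chain recombination went opposite ways. Dntt encodes terminal transferase, which adds bases without a template at the joints. It read 7.51, 8.08 and 7.84 (log2 MAS5 signal, replicates 1 to 3) in WT, 6.89, 6.99 and 7.14 in E, and 7.27, 7.24 and 6.77 in M. Every E and M array lay under every WT array. The difference of M from WT was -0.72 ± 0.22 (SE, limma adjusted p = 0.0175), a fall that missed the threshold without WT replicate 2 (-0.58, adjusted p = 0.0845) or WT replicate 3 (-0.70, adjusted p = 0.0536). Other scalings made the fall larger: it was -1.30 after quantile normalization, -1.35 after median centring and -1.71 on the spike-in scale (adjusted p = 0.000426, 8.47e-05 and 1.72e-05). The M to E difference was 0.08 (adjusted p = 0.796) as deposited and a called fall on those scales (-0.60, -0.68 and -0.97; adjusted p = 0.0393, 0.0158 and 0.00985). The difference of E from WT, -0.80, did not pass over all 9 arrays (adjusted p = 0.154), but had an adjusted p of 0.0324 with M replicate 3 left out of the shared variance. With the mean of its 3 probe sets the M difference was -0.80 (adjusted p = 0.147). The second probe set gave -0.88 (E) and -0.83 (M) against WT, the latter called over all probe sets (adjusted p = 0.0143), and the third was dim in 8 of 9 arrays.

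Rag1, the catalytic part of the recombinase, read 4.03, 4.90 and 4.65 in WT, 5.64, 5.66 and 6.12 in E, and 7.80, 7.28 and 8.95 in M. The groups did not overlap, and each stood above the one before it. The WT signals were dim, so the fold against WT is less certain than that against E. From WT to M the gene rose 11.2-fold, by 3.48 ± 0.43 (log2, SE, limma adjusted p = 3.23e-05), and from E to M by 2.20 ± 0.43 (adjusted p = 0.00104). On the spike-in scale these rises were 2.49 and 1.15, still called (adjusted p = 1.66e-05 and 0.0352), and with a pseudocount of 64 they were 1.90 and 1.44. The difference of E from WT was 1.28 (95% interval 0.34 to 2.22, adjusted p = 0.279).

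The surrogate light chain genes were both higher in M than in WT. Vpreb1 read 6.19, 6.57 and 6.25 in WT, 7.77, 7.32 and 8.03 in E, and 7.67, 7.63 and 9.46 in M. All E and M arrays lay above all WT arrays, and E and M overlapped, M replicate 3 alone lying above every E array. It rose 3.78-fold from WT to M (1.92 ± 0.41 SE, limma adjusted p = 0.00194). The rise was 1.31 without M replicate 3 and 0.92 on the spike-in scale, both called (adjusted p = 0.000538 and 0.033). The E to WT difference of 1.37 had an adjusted p of 0.203, and of 0.00266 without M replicate 3. Between M and E the difference was 0.54 (95% interval -0.34 to 1.43, adjusted p = 0.315) and turned to -0.0597 without M replicate 3, to -0.22 with arrays centred on the median and to -0.51 with arrays scaled on the spike-ins.

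Igll1, which encodes the constant-like part of the surrogate chain, read 6.43, 5.31 and 6.70 in WT, 6.87, 7.40 and 7.25 in E, and 9.39, 9.51 and 10.1 in M. The groups did not overlap, and M stood 11.6-fold above WT (3.53 ± 0.33 SE, limma adjusted p = 3.09e-06) and 5.68-fold above E (2.51, adjusted p = 4.29e-05). The probe sets of this gene disagreed. These values are from a probe set whose identifier carries the x suffix, the mark of probes that can match other transcripts. Among the 10 genes the main Dntt probe set carries it too, as do the Igha probe sets other than the main one. The other Igll1 probe set read 3.90, 5.31 and 4.66 in WT, 2.34, 5.08 and 5.60 in E and 4.13, 2.59 and 2.80 in M. That second set was dim in all 9 arrays and gave -1.45 for M with WT (adjusted p = 0.239, over all probe sets). With the mean of both sets M stood 1.04 above WT (adjusted p = 0.103) and 0.67 above E (adjusted p = 0.288), neither called.

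**Figure D1:**
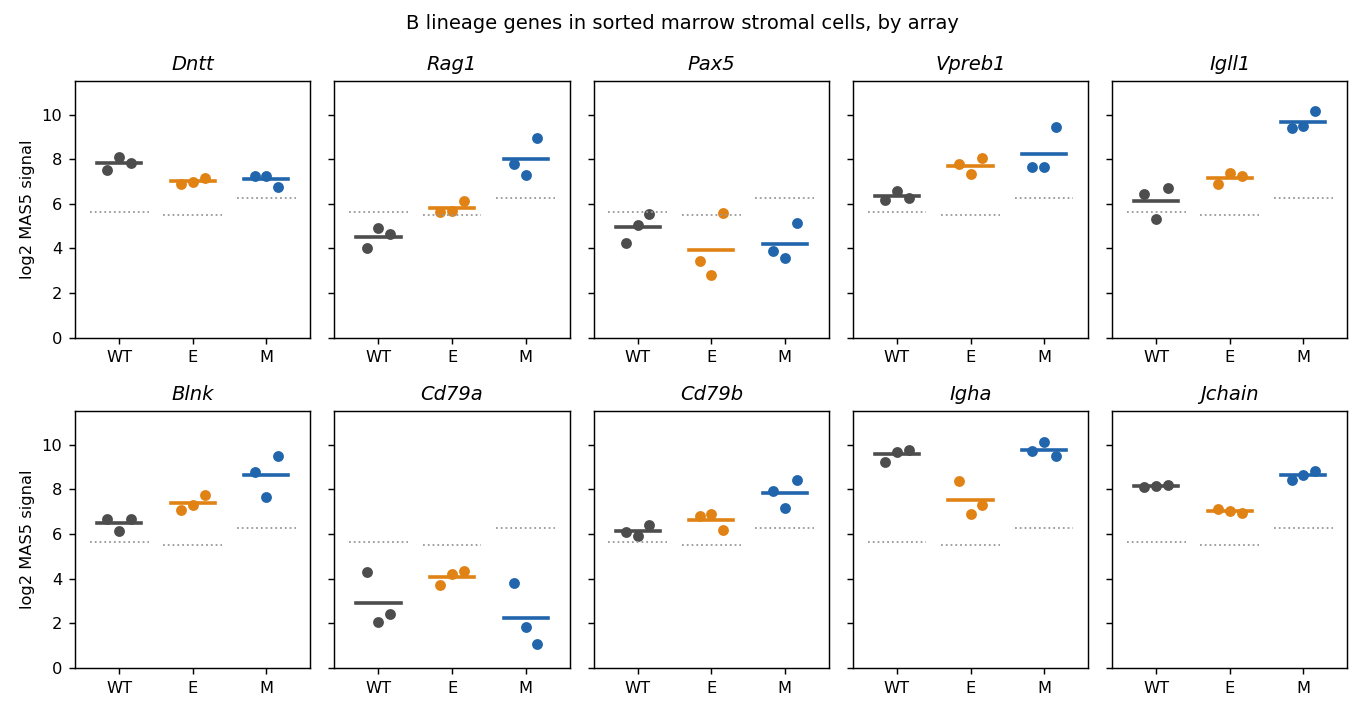
Log2 MAS5 signal of each of the 10 genes in the 9 arrays, by group (points are arrays, solid lines group means, dotted lines the mean over a group's arrays of the median of all probe sets). Rag1, Vpreb1, Igll1 (main probe set), Blnk and Cd79b step up from WT through E to M in group mean. Igha and Jchain are lowest in E, and Pax5 and Cd79a lie at or under the dotted lines in nearly all arrays.

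Of the 4 genes of B cell commitment and receptor signalling, Blnk and Cd79b rose in M, and the other two were dim. Blnk read 6.68, 6.14 and 6.69 in WT, 7.10, 7.28 and 7.77 in E, and 8.76, 7.66 and 9.51 in M. All M and E arrays lay above the WT arrays, while M replicate 2 lay within E. Blnk rose 4.41-fold from WT to M (2.14 ± 0.38 SE, limma adjusted p = 0.000524). The rise of 1.26 from E to M (adjusted p = 0.0157) lost its call with quantile normalization (0.81, adjusted p = 0.146), median centring (0.50, adjusted p = 0.289) or spike-in scaling (0.21, adjusted p = 0.637), and without E replicate 1 (adjusted p = 0.063) or E replicate 2 (adjusted p = 0.0513). Without the intensity trend in the variance the adjusted p was 0.0605.

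Cd79b, the Ig-beta chain that carries the signal of the receptor into the cell, read 6.08, 5.91 and 6.39 in WT, 6.82, 6.89 and 6.20 in E, and 7.93, 7.17 and 8.43 in M. M lay above both other groups, which overlapped. The gene rose 3.28-fold from WT to M (1.72 ± 0.33 SE, limma adjusted p = 0.000911; 0.72 and adjusted p = 0.106 with spike-in scaling). It rose by 1.21 from E to M (adjusted p = 0.0088), a call lost with quantile normalization (0.59, adjusted p = 0.218), median centring (0.45, adjusted p = 0.314) and spike-in scaling (0.16, adjusted p = 0.758).

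Cd79a, the Ig-alpha partner of Cd79b, and Pax5, the factor that commits progenitors to the B lineage, were dim and had overlapping groups. Cd79a read 4.28, 2.05 and 2.42 in WT, 3.73, 4.19 and 4.36 in E, and 3.80, 1.82 and 1.06 in M, under the probe set median of all 9 arrays. Its M to WT difference was -0.69 with a 95% interval from -2.67 to 1.28 (limma adjusted p = 0.596). Its M to E difference of -1.87 was not called (adjusted p = 0.118), but was without M replicate 1 (-2.66, adjusted p = 0.039) and with arrays rescaled by quantiles, medians or spike-ins (adjusted p = 0.036, 0.0251 and 0.01). Pax5 read 4.22, 5.06 and 5.56 in WT, 3.44, 2.81 and 5.60 in E, and 3.89, 3.55 and 5.14 in M. It was above the probe set median in 1 of 9 arrays, with an M to WT difference of -0.75 (interval from -2.46 to 0.95, adjusted p = 0.491; -1.75 and 0.0496 with spike-in scaling). Both signals were dim, which limits what these differences show.

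Igha and Jchain, the plasma cell genes among the 10, had a different course, with the lowest signals in E. The mean log2 signal of the 6 pan-leukocyte markers was lowest in E too (9.10 in WT, 8.64 in E and 10.45 in M). Igha, the constant region of the IgA heavy chain, read 9.23, 9.68 and 9.77 in WT, 8.37, 6.88 and 7.28 in E, and 9.72, 10.1 and 9.49 in M. All E arrays lay under all others, and WT and M overlapped. Igha fell by 2.05 from WT to E (4.14-fold, SE 0.31, limma adjusted p = 0.0054, and 0.134 without the intensity trend in the variance). It was 4.79-fold higher in M than in E (2.26, adjusted p = 5.76e-05). All 3 Igha probe sets fell in E, by 2.05, 2.06 and 1.54 (adjusted p = 0.00647, 0.00129 and 0.0426 over all probe sets), although probes of immunoglobulin constant regions may not be specific to the class. M and WT differed by 0.21 (95% interval -0.46 to 0.88, adjusted p = 0.636), a sign that turned with median centring (-0.42) and spike-in scaling (-0.78, adjusted p = 0.0148).

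Jchain encodes the small chain that joins IgA and IgM units into polymers. It read 8.12, 8.15 and 8.18 in WT, 7.14, 7.05 and 6.94 in E, and 8.42, 8.66 and 8.83 in M. The groups did not overlap, and E was the lowest. The fall from WT to E was 1.11 ± 0.15 (log2, SE, 2.16-fold, limma adjusted p = 0.00299; -1.05 and adjusted p = 0.0899 with spike-in scaling). From E to M Jchain rose 3.02-fold (1.59, adjusted p = 2.97e-06; 0.54 and adjusted p = 0.104 with spike-in scaling). The M to WT difference of 0.49 (adjusted p = 0.0202) depended on the scaling: it was 0.15 after quantile normalization, -0.14 after median centring and -0.51 on the spike-in scale, none of them called. It also missed the threshold without WT replicate 1 or 2 or M replicate 2 or 3 (adjusted p from 0.0514 to 0.0613).

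**Figure D2:**
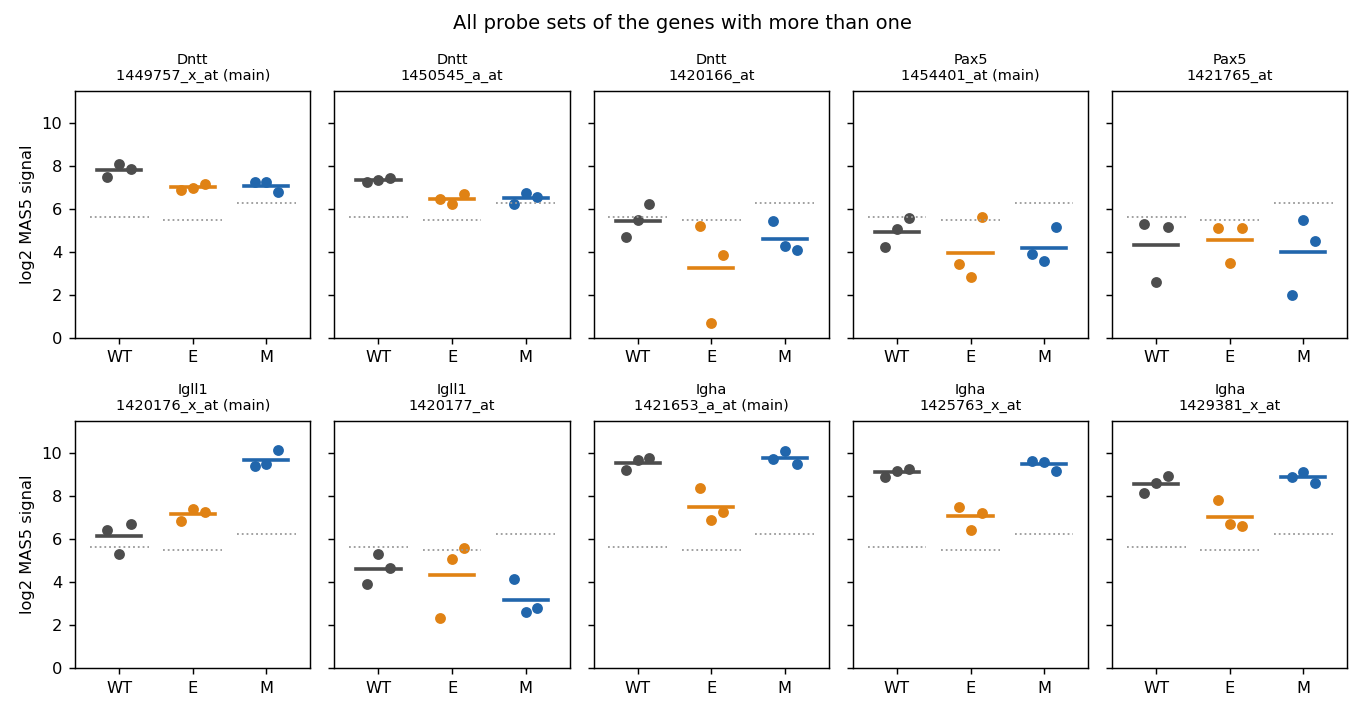
Log2 MAS5 signal by array for every probe set of the 4 genes with more than one (points are arrays, solid lines group means, dotted lines the median of all probe sets). The 3 Igha probe sets share the low E values, whereas only the main Igll1 probe set is high in M.

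In numbers, 2 of the 10 genes were called lower in E than in WT (Igha and Jchain) and 0 higher, where 0.852% of all 18194 genes were called (0.159% higher and 0.693% lower). With unadjusted p under 0.05, 7 of the 10 passed, 4 higher and 3 lower, where 10.7% of all genes did (4.17% higher and 6.49% lower). Arrays of E and WT did not overlap in 7 of the 10, 4 higher and 3 lower, against 20.8% of all genes (9.45% higher and 11.3% lower). Between M and WT, 6 were called higher and 1 lower, where 43.3% of all genes were called (22.2% higher and 21.1% lower). The arrays of 7 did not overlap, 6 higher and 1 lower, against 52.7% (28.3% and 24.4%). Between M and E, 6 were called higher and 0 lower, where 45.5% were called (24.1% higher and 21.4% lower). Of the 10, 0 were lower at an unadjusted p under 0.05 as well, where 23.4% of all genes were. The arrays of 5 did not overlap, 5 higher and 0 lower, against 54.8% (30.5% and 24.3%). These shares show how far M stood from the other groups, and counts of the 10 genes near them are no result about B lineage genes. The median difference of the 10 genes was 0.69 for E with WT, beside -0.02 for all genes. For M it was 1.10 against WT and 1.24 against E, beside 0.11 and 0.19. The comparisons share arrays, so they are not independent of each other. The median of all genes for M with WT was -0.18 after quantile normalization, -0.51 after median centring and -0.88 on the spike-in scale, and the share of higher genes among those called went from 51.2% to 39.4%, 25.9% and 18.8%. For M with E those medians were -0.19, -0.58 and -0.87, and the share went from 53.0% to 39.8%, 24.9% and 20.2%. The split of the 10 genes depended on the scaling as well. On each of those scales Dntt and Cd79a were called lower in M than in E, and Blnk and Cd79b lost their calls. In M with WT, spike-in scaling called Igha and Pax5 lower, and Cd79b and Jchain lost their calls.

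**Figure D3:**
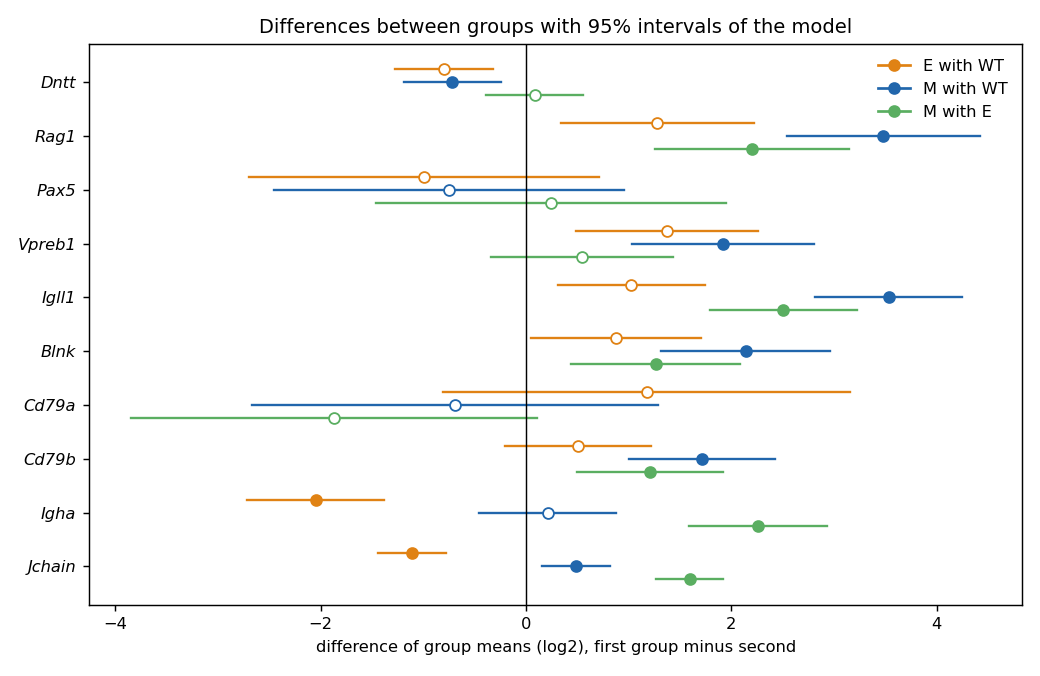
Differences of group means (log2, first group minus second) for the 10 genes with 95% intervals of the limma fit; filled points had an adjusted p under 0.05. In E with WT only Igha and Jchain are filled, both to the left of 0, and in M with WT the largest differences are those of Igll1 (3.53) and Rag1 (3.48).

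Other genes of the lineage were followed in lists compiled from general knowledge. Of 13 measured pro-B and pre-B genes, 6 rose, 3 fell and 4 did not pass in M against WT, with a median of 1.17. Over all genes 22.2% rose and 21.1% fell in M against WT, with a median of 0.11. Ebf1, a factor that opens the B cell program and is also active in marrow stroma and fat cells, rose 35.4-fold, from 4.55 ± 0.26 (dim) to 9.70 ± 0.58 (SD, n = 3, limma adjusted p = 6e-08), and by 3.65 (log2) with the mean of its probe sets. Foxo1, which drives Rag gene transcription, rose by 1.55 (adjusted p = 1.9e-06). Sox4, a progenitor factor of many tissues, rose by 1.17 (adjusted p = 6.86e-08; 0.18 and not called with spike-in scaling). Tcf3, which encodes E2A, fell by 1.01 (adjusted p = 4.17e-07).

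Of the same 13 genes 0 rose and 2 fell in E, with a median of -0.04 (2 higher and 3 lower at an unadjusted p under 0.05). Over all genes 0.852% were called and 10.7% had an unadjusted p under 0.05. Sox4 fell by 0.68 (limma adjusted p = 0.000492; 0.206 with spike-in scaling and 0.783 with the mean of its probe sets). Flt3, the receptor kinase of early lymphoid progenitors, was 7.33 ± 0.13 in WT and 5.86 ± 0.28 in E (SD, n = 3), a difference of -1.47 (limma adjusted p = 0.0284). Leaving out WT replicate 1, 2 or 3 or E replicate 2 or 3 ended that call (adjusted p from 0.0823 to 0.136). So did quantile normalization, median centring, spike-in scaling and a variance without trend (0.0806, 0.0537, 0.107 and 0.063). Foxo1 (-0.63, adjusted p = 0.0625) and Ebf1 (1.11, adjusted p = 0.163) did not pass in E.

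Of 19 measured genes of the B-cell receptor and mature B cells, 9 rose, 1 fell and 9 did not pass in M against WT (median 0.72). Over all genes 22.2% rose and 21.1% fell (median 0.11). In E 0 of 19 passed by limma, with 1 higher and 1 lower at an unadjusted p under 0.05, beside 10.7% of all genes. Ighm, the constant region of the first heavy chain that a B cell makes, read 9.55, 9.95 and 9.51 in WT, 10.96, 10.85 and 10.79 in E, and 11.62, 11.14 and 13.47 in M. Its groups did not overlap, and it rose 5.30-fold from WT to M (limma adjusted p = 0.00051; 0.0716 with the mean of its 11 probe sets). Without M replicate 3 the rise was 1.71 (adjusted p = 3.19e-07). In E, where Igha was lowest, Ighm lay 1.20 above WT (adjusted p = 0.31), and Plcg2 (-0.35), Pou2af1 (0.76) and Ms4a1, which encodes CD20 (-0.85), did not pass either. Pou2af1, a coactivator that works with POU factors at octamers, rose 5.88-fold in M (adjusted p = 0.000127), Bcl6, a repressor of germinal centre and pre-B cells, 4.51-fold (adjusted p = 1.01e-05), and Plcg2, an enzyme downstream of Blnk, 2.89-fold (adjusted p = 6.71e-06; 0.0611 with spike-in scaling).

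Of 12 plasma cell genes, 8 rose and 4 did not pass in M against WT (median 1.37), and 0 of 12 passed in E (median 0.03), also at an unadjusted limma p under 0.05. Over all genes 22.2% rose and 21.1% fell in M against WT. In E 0.852% of all genes were called and 10.7% had an unadjusted p under 0.05. Many of the plasma cell genes serve secretion in other cells too. In E, where Igha and Jchain fell, Mzb1, a chaperone of antibody secretion, differed from WT by 0.40, Derl3 by 0.46, Eaf2 by 0.85 and Txndc5 by 0.18 (adjusted p from 0.484 to 0.649). In M, Sdc1, the surface proteoglycan CD138, rose 5.28-fold (limma adjusted p = 2.9e-06), and the endoplasmic reticulum gene Fkbp11 3.16-fold (adjusted p = 3.45e-06; 0.287 with the mean of its probe sets). Xbp1, the factor of the secretory program, rose 2.39-fold (adjusted p = 1.22e-07; 0.291 with spike-in scaling). Txndc5, an oxidoreductase of the same compartment, rose 1.78-fold (adjusted p = 7.68e-06), with 0.21 and no call after median centring and -0.16 with spike-in scaling.

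Among 5 measured factors by which stroma feeds or holds B lineage cells, 4 rose in M against WT, beside 22.2% of all genes. In E 0 of 5 passed by limma, with 1 higher and 1 lower at an unadjusted p under 0.05, beside 10.7% of all genes. The growth factor of pro-B cells, Il7, read 5.40, 4.58 and 4.90 in WT, 4.74, 4.69 and 5.34 in E, and 7.23, 7.02 and 7.56 in M (2.31 ± 0.38 SE for M with WT, limma adjusted p = 0.000296). Its WT and E signals were dim, and with a pseudocount of 64 the rise was 1.19. Cxcl12, Kitl and Vcam1 rose by 4.16, 4.19 and 3.57, and Tnfsf13b, the survival factor BAFF, did not pass (-0.04, adjusted p = 0.959).

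**Figure D4:**
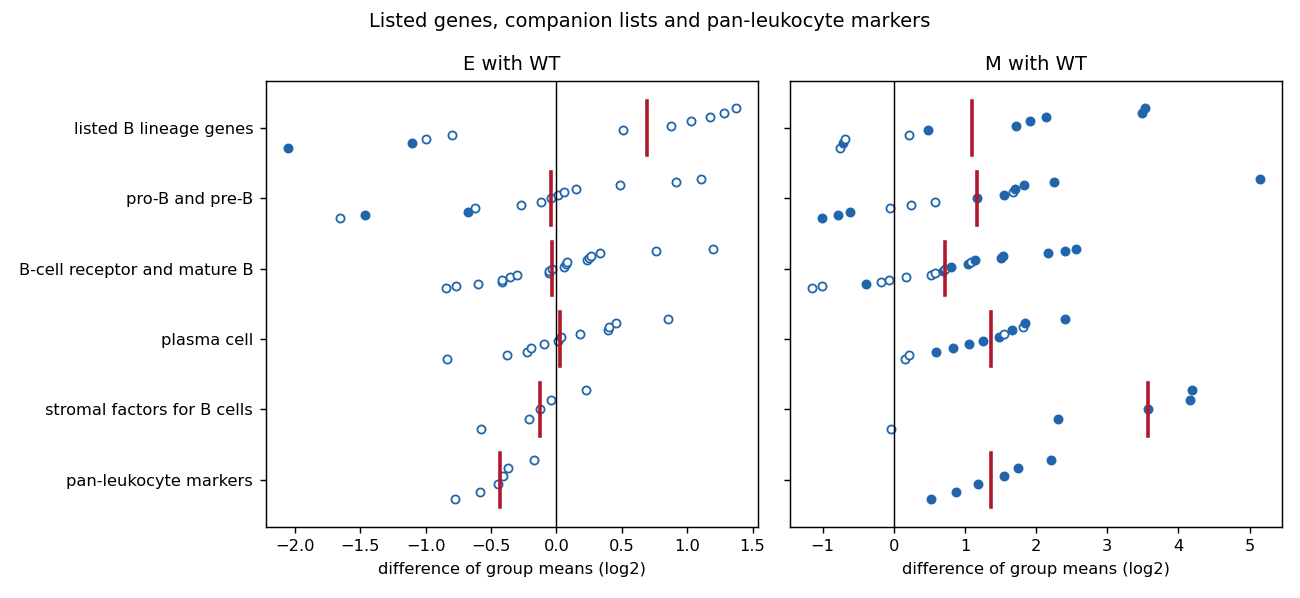
Differences from WT (log2) of the 10 listed genes, the companion lists and the pan-leukocyte markers in E (left) and M (right); each point is a gene, filled where the adjusted p was under 0.05, and red lines are list medians. In E the filled points are Igha and Jchain among the listed genes and Flt3 and Sox4 among the pro-B and pre-B genes, and in M all 6 list medians lie above 0.

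Markers of other cells moved alongside. With values as deposited all 6 pan-leukocyte markers rose in M against WT, beside 22.2% of all genes. Their M with WT differences ran from 0.52 (Laptm5) and 0.87 (Ptprc) to 2.21 (Cd53). Median centring lowers each of these differences by 0.63 and spike-in scaling by 0.99. The mean log2 signal of the 6 was 9.10 ± 0.07 for WT arrays, 8.64 ± 0.09 for E arrays and 10.45 ± 0.43 for M arrays (SD, n = 3). Within M all 6 were highest in replicate 3, as were 7 of the 10 B lineage genes, the dim Pax5 among them. The mesenchymal marker sum was highest there too (64569.8, against 53662.5 and 51159.5 in replicates 1 and 2). So was the median log2 signal of all genes (7.69, against 7.54 and 7.51). The share of all genes highest in replicate 3 was not counted. Dntt and Rag1 are also active in T cell progenitors. Of 5 measured T cell markers, with 0 values at zero, 4 were dim in all 9 arrays (Cd3e, Cd3d, Cd3g and Cd4) and Cd8a in 8. Of these 5, 1 rose in M against WT (Cd3d by 2.44, limma adjusted p = 0.0126), beside 22.2% of all genes. In M against E 2 rose (Cd3d by 2.02, adjusted p = 0.032, and Cd8a by 2.01, adjusted p = 0.0361), beside 24.1% of all genes. The summed signal of the 5 was 77.4 to 114 in WT, 59.5 to 92.6 in E and 122 to 160 in M. Of 4 plasmacytoid dendritic cell markers, cells that transcribe some B lineage genes, the sum was 555 to 680, 653 to 821 and 559 to 736, a total carried largely by Bst2. In M against WT 2 of the 4 rose, beside 22.2% of all genes. These were Ccr9 by 1.67 (limma adjusted p = 0.00981) and Ly6d by 1.52 (adjusted p = 0.03), and Bst2 (-0.26) did not pass. The defining gene Siglech was dim in all 9 arrays, with 0.14 for M with WT (adjusted p = 0.852), and rose by 1.46 from E to M (adjusted p = 0.0245). From E to M Ccr9 rose too (1.52, limma adjusted p = 0.0159), Bst2 fell (-0.67, adjusted p = 0.00733) and Ly6d did not pass (1.26, adjusted p = 0.0633). The part of these cells in the results was not tested. Of 3 NK cell markers measured the sum was 165 to 183 in WT, 112 to 195 in E and 353 to 422 in M. In M against WT 1 of these rose, Nkg7 (1.34, limma adjusted p = 0.000627), beside 22.2% of all genes. Klrd1 and Ncr1 were dim in all 9 arrays. All 4 endothelium markers rose in M against WT, and their sum was 164 to 229 in WT, 122 to 181 in E and 597 to 944 in M. The granulocyte marker sum (6 of 6 measured, 0 values at zero) was 9448 to 10576 in WT, 11390 to 12395 in E and 82411 to 96028 in M. Over all genes 0.159% were called higher and 0.693% lower in E with WT. Of the 6, 2 were called higher there, S100a8 (2.24, limma adjusted p = 1.58e-07) and S100a9 (2.50, adjusted p = 7.86e-07). Mpo was called lower (-0.55, adjusted p = 0.00177), and the other 3 did not pass.

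The 10 genes were also set against the leukocyte markers, by shifting each array by the mean of the 6, an alternative chosen after seeing the data. On that scale M stood above WT for Igll1 (2.18, limma adjusted p = 1.2e-05), Rag1 (2.13, adjusted p = 0.000189) and Blnk (0.79, adjusted p = 0.0352). The Igll1 values are those of its main probe set, with which its other probe set disagreed. Vpreb1 (0.57, adjusted p = 0.145) and Cd79b (0.37, adjusted p = 0.367) were not called. Dntt (-2.07, adjusted p = 3.64e-05), Igha (-1.14, adjusted p = 0.0119), Jchain (-0.86, adjusted p = 0.00615) and the dim Pax5 (-2.10, adjusted p = 0.0201) lay under WT. In E, Vpreb1 was above WT (1.83, adjusted p = 0.0259), whereas the lower values of Igha (-1.59, adjusted p = 0.11) and Jchain (-0.65, adjusted p = 0.182) lost their calls. From E to M, Igll1 (0.70, adjusted p = 0.0661) and Rag1 (0.39, adjusted p = 0.412) did not pass. Blnk (-0.55), Cd79b (-0.60) and Jchain (-0.22) turned below 0 without a call, and 3 genes were called lower in M than in E: Dntt (-1.72, adjusted p = 0.000188), Vpreb1 (-1.26, adjusted p = 0.00233) and the dim Cd79a (-3.68, adjusted p = 0.00274). Over all 18194 genes, this scale called 10452 lower and 1283 higher in M with E (median difference -1.62). It called 9217 lower and 1502 higher in M with WT (median -1.23), and 6 lower and 28 higher in E with WT. The counts of genes lower in M among the 10 are therefore no result about B lineage genes.

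**Figure D5:**
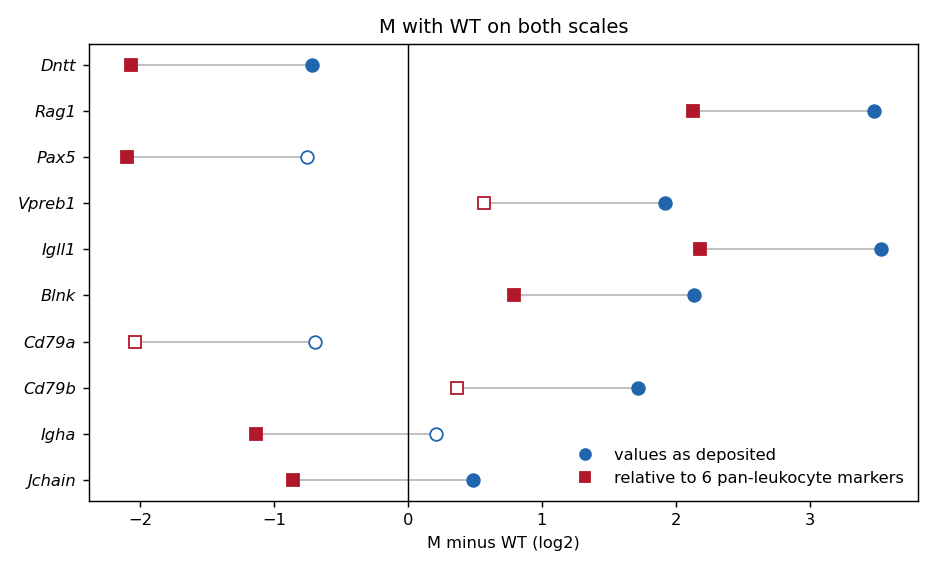
M minus WT (log2) for the 10 genes, with values as deposited (circles) and with each array shifted by the mean of the 6 pan-leukocyte markers (squares); filled symbols had an adjusted p under 0.05. Igll1 (main probe set) and Rag1 stay above 2 on both scales, while Igha and Jchain change sign. The other Igll1 probe set, not drawn, gave -1.45 for M with WT as deposited.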

How the data were processed

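The deposited values are log2 MAS5 signals of Affymetrix 3' expression arrays, 1 array a sample, per the submitters' processing notes; the MAS5 version is not given. Trimmed by 2% of probe sets at each end, the mean linear signal was 500.0 in each array, so arrays had been scaled by the authors to a common mean. Of 45101 probe sets, 34958 carried 1 gene symbol in the platform annotation, 932 several and 9211 were not listed. The last 2 kinds were left out. The log2 values were used as deposited, with no filter on dim genes, since 3 of the 10 genes lie under the median of gene means. Group differences come from limma 3.58.1 (R 4.3.3), fitted to all 9 arrays with an intensity-dependent prior variance and adjusted by the Benjamini-Hochberg method over 18194 genes and called under 0.05. P-values measure the spread between arrays, whose number limits the precision. The genes and lists were chosen with earlier results of these data known. Of the companion lists, the 4 genes with the smallest p in M with WT or E with WT are named, beside markers of other cells. Companions and markers not measured under their symbol are not analysed here. The fit was tested on simulated data. The replicate numbers did not pair arrays: deviations of same-numbered arrays correlated between -0.03 and 0.02 over 9 pairs.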

Additional observations from a re-analysis of the deposited data

How the results depend on the processing

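Alternatives were filters on dim genes, 3 other scalings, pseudocounts of 16 and 64, other variance models, the mean of a gene's probe sets, probe sets one by one, the replicate block, the compared groups alone, each replicate left out, and the pan-leukocyte scale (added after seeing the data). The count of B lineage genes called in E with WT (2) was 1 with spike-in scaling, 1 without the trend, 1 on the leukocyte scale, 4 with only the compared groups and 2 to 4 with an array left out (4 without M replicate 3). The 1 on the leukocyte scale was Vpreb1, higher in E, while Igha and Jchain lost their calls. It was 5 to 7 with an array left out in M with WT (7) and 5 to 7 in M with E (6). On the leukocyte scale it was 3 in M with E, and these were Dntt, Vpreb1 and Cd79a, all lower in M. All 6 genes called higher in the main fit lost their call there. The strict filter kept 0 B lineage genes and gave no such count. Over all genes E with WT gave 155 calls, but 85 with the strict filter on dim genes, 88 with spike-in scaling, 57 without the trend, 382 with array weights, 91 with the mean of probe sets, 515 with the compared groups alone and 92 to 617 with an array left out. M with WT (7880) and M with E (8274) gave 3466 and 3485 with the strict filter, 12299 and 13055 over probe sets one by one, and 7051 to 7759 and 7350 to 8112 with an array left out. The replicate block gave 2, 7 and 6 calls of B lineage genes, as without it, and 141, 7677 and 8064 over all genes.

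Signs turned as follows. In M with E Dntt (0.08) was -0.60 after quantile normalization, -0.68 after median centring, -0.97 with spike-in scaling, -1.72 on the leukocyte scale and -0.0035 to 0.25 with a replicate left out (below 0 without M replicate 1), with a call on each of those 4 scales. Pax5 (0.24) was -0.54, -0.52, -0.81 and -1.57 on those 4 scales, -0.0053 with a pseudocount of 64, -0.16 with the mean of probe sets and -0.33 to 1.07 with a replicate left out (below 0 without E replicate 1, E replicate 2 or M replicate 3). Vpreb1 (0.54) was -0.22 after median centring, -0.51 with spike-in scaling, -1.26 on the leukocyte scale and -0.0597 to 0.86 with a replicate left out (below 0 without M replicate 3). On the leukocyte scale Blnk was -0.55, Cd79b -0.60 and Jchain -0.22. In M with WT Igha was -0.42, -0.78 and -1.14 and Jchain -0.14, -0.51 and -0.86 after median centring, with spike-in scaling and on the leukocyte scale, and Txndc5 was -0.16 with spike-in scaling. The causes were not tested. Of the other values of the 10 genes under an alternative, 611 kept direction and side of the threshold, 30 lost a call and 13 gained one, not counting those whose sign turned.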
